A study of Homo sapiens with 4 samples.

Results

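The comparison set CP70sps cells after 6 h of niclosamide against CP70sps cells after 4 h, with 1 array at each time out of the 4 arrays of the series. CP70sps cells, which the labels call ovarian tumor-initiating cells, are a single line taken out of the ovarian cancer line Cp70 for excluding the dye Hoechst3334, and they were grown without serum on plates that prevent attachment. Insulin, albumin, bFGF and EGF were in the medium. Both groups received 3 µM niclosamide, and the other 2 arrays came from the same line at 0 h and 2 h. No array of cells kept to 4 h or 6 h without the drug was used, so hours of drug and hours in culture cannot be told apart. Genes entered the comparison when at least 1 of their probes had a detection p under 0.01 on both arrays, that is, a signal that fewer than 1% of the negative control probes of the array reached. This left 9258 of 18665 named genes, read by 11751 of the 48803 probes.

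Niclosamide is an anthelmintic drug that carries protons across the inner mitochondrial membrane and so uncouples respiration from ATP synthesis. Mitochondrial stress, amino acid shortage and misfolded protein in the endoplasmic reticulum can each trigger the integrated stress response, in which phosphorylation of the initiation factor eIF2α lowers general translation while translation of the transcription factor ATF4 goes up, and ATF4 with its partner CHOP then drives genes of amino acid transport, amino acid synthesis and cell death. Genes of mitosis are held down outside the G2 and M phases by DREAM, a repressor complex that binds the CHR element of their promoters, and are driven in those phases by B-MYB and FOXM1. Hypoxia-inducible factors, whose subunit HIF1A is destroyed when oxygen is at hand, drive genes of glycolysis and blood vessel growth.

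The values were bead intensities, background-corrected, quantile normalized over the 4 arrays and taken to log2. A log2 difference of 1 is therefore a 2-fold difference, and a level can be compared between times but not between genes. The number of detected probes was 13827 at 6 h and 14461 at 4 h, or 28.3% and 29.6% of all probes, and the median raw signal was 66.0 and 63.2 intensity units. With 1 array per time there is no error over cultures and no test, and every value below describes these 2 arrays. The number of arrays limits the precision. The only repeat within an array was a second probe of the same gene, available for 2117 of the 9258 genes, and single probes scattered around their gene with a robust SD of 0.18 in the log2 difference.

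Differences between 6 h and 4 h were small for most genes. The median log2 difference, 6 h minus 4 h, was -0.02, with a robust SD of 0.23, against a robust SD of 0.40 for 2 h minus 0 h in the same genes. By the brightest probe of each gene, 11 genes (0.119%) were higher at 6 h by 2-fold or more and 3 (0.0324%) lower by as much. At 1.5-fold, 172 genes were higher (1.86%) and 112 lower (1.21%), so 60.6% of the genes past 1.5-fold were higher. With the arrays scaled to a common median instead, the split was 140 higher and 156 lower, or 47.3% higher, and the median of all genes was -0.06. Without background correction, and likewise with the authors' processed values, 6 genes were past 2-fold on the higher side and 0 on the lower side, and 108 and 53 past 1.5-fold. An offset of 50 gave 7 and 0 past 2-fold. The 2-fold line lay between TFAP4 at 1.02 and ATF3 at 0.96 on the higher side and between IRF1 at -1.01 and TMSB15A at -0.90 on the lower side.

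Many of these differences had a counterpart in the 2 other arrays. The 2 h minus 0 h difference uses neither the 6 h nor the 4 h array, although all 4 come from the same line and were normalized together. Detection was not required at 0 h or 2 h, so this difference is less certain for dim probes. The log2 difference 2 h minus 0 h and the log2 difference 6 h minus 4 h correlated across the 9258 genes (r = 0.56, a description over genes, which are not independent replicates). Of the 172 genes at least 1.5-fold higher at 6 h, 119 were also at least 1.5-fold higher at 2 h than at 0 h, which held for 8.54% of all genes. Of the 112 at least 1.5-fold lower, 53 were also at least 1.5-fold lower at 2 h than at 0 h, against 7.99% of all genes. The likeness followed the probe more than the gene. In the 1783 genes with exactly 2 detected probes, it was r = 0.53 and r = 0.49 when each probe was compared with itself, and r = 0.09 and r = 0.01 when one probe of the gene was compared with the other. The 2 h minus 0 h difference was itself little shared between the 2 probes of a gene (r = 0.10). Which chip and hybridization each array belonged to is not given in the sources used here, and with 1 array per time a difference between arrays and a difference between times cannot be told apart. The part of this likeness in any single result was not tested. Counts of the main gene lists that had members past 1.5-fold at 2 h against 0 h are given below with and without them. Members with smaller differences at 2 h against 0 h stay in, so the counts without them do not remove the likeness. Without the genes past 1.5-fold in the same direction at 2 h against 0 h, 53 genes past 1.5-fold were left on the higher side and 59 on the lower side, and at 2-fold 1 and 0. The 53 and 59 were 0.686% and 0.763% of the 7728 genes under 1.5-fold either way at 2 h against 0 h.

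**Figure D1:**
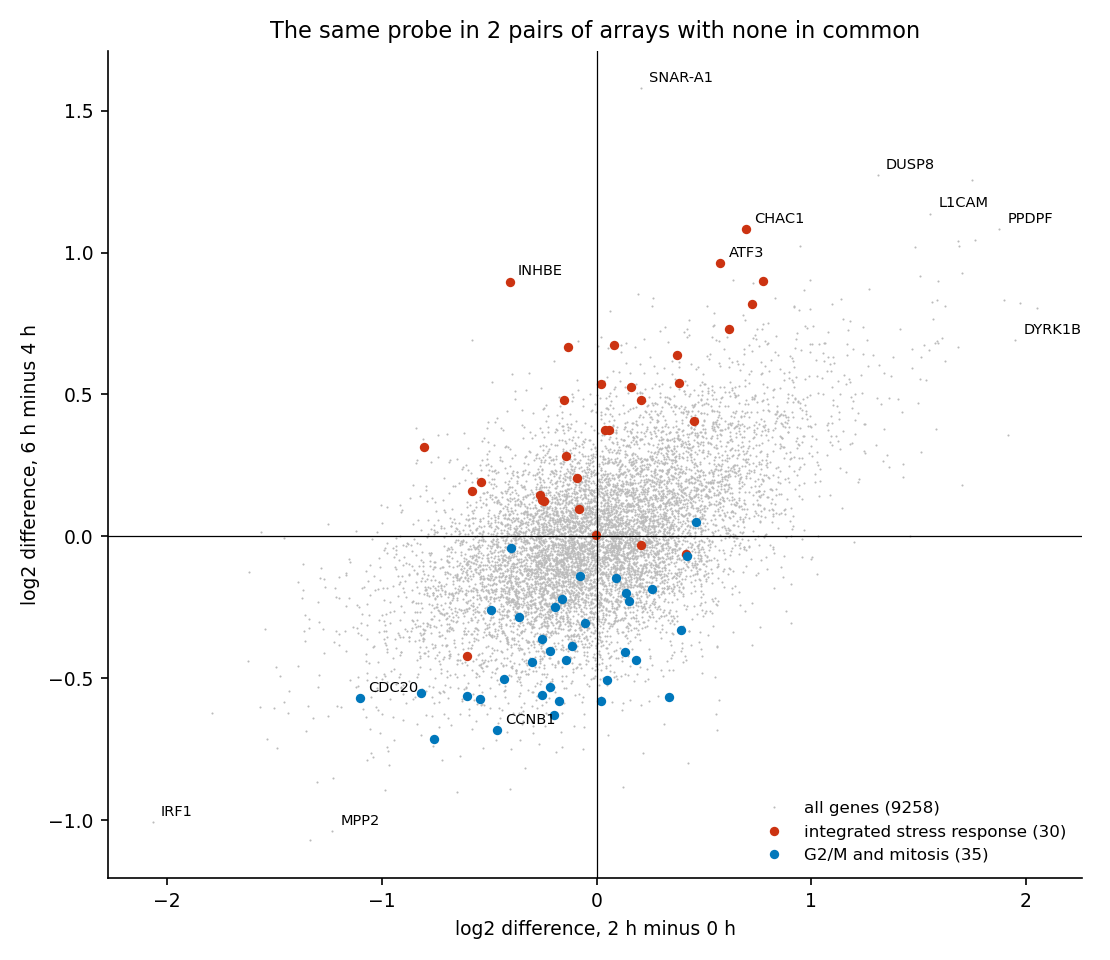
Log2 difference of each gene's brightest probe between 6 h and 4 h (vertical axis) and between 2 h and 0 h (horizontal axis), 1 array per time, for all 9258 genes (grey), 30 measured genes of the integrated stress response (red) and 35 of G2/M and mitosis (blue). The grey cloud is tilted (r = 0.56), DUSP8, L1CAM and PPDPF lie far along the tilt at the upper right and IRF1 and MPP2 at the lower left, while most red points lie above 0 and most blue points below 0 on the vertical axis.

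The integrated stress response was the group with the most members past 1.5-fold at 6 h. Of 34 listed genes 30 were measured, 27 were higher and 3 lower than at 4 h, against 46.6% and 53.2% of all genes, with 9 past 1.5-fold on the higher side and 0 on the lower side. The median log2 difference was 0.39, beside -0.02 for all genes. The shares over all genes, 46.6% higher and 53.2% lower by any amount and 1.86% and 1.21% past 1.5-fold, are the background for each list that follows. For counts past 1.5-fold without members past 1.5-fold at 2 h against 0 h, the background is 0.686% higher and 0.763% lower. The median of those 7728 genes was -0.03. Leaving out the 6 members past 1.5-fold in either direction at 2 h against 0 h left 24 genes with a median of 0.38, of which 22 were higher and 5 at least 1.5-fold higher. In bulk RNA, a higher level in every cell and a larger share of cells at a high level cannot be told apart.

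CHAC1, which encodes an enzyme that breaks down glutathione, had log2 levels of 7.12, 7.81, 8.35 and 9.44 at 0, 2, 4 and 6 h, and was 2.12-fold higher at 6 h than at 4 h. DDIT3, the gene of CHOP itself, had log2 levels of 10.48, 11.21, 11.68 and 12.50 at the same times and was higher by 0.82. ATF3, a transcription factor of the same response, had 9.68, 10.26, 10.35 and 11.31 and was higher by 0.96. These 3 levels were higher at each time than at the one before it, though ATF3 differed little between 2 h and 4 h.

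TRIB3, a pseudokinase gene and target of CHOP, read differently over time, with log2 levels of 11.72, 11.80, 11.86 and 12.54 at 0, 2, 4 and 6 h, so that the 6 h array alone stood apart by 0.68. INHBE, which encodes a subunit of activin E, had 9.05, 8.64, 8.92 and 9.82, and its difference of 0.90 between 6 h and 4 h was opposite in sign to its difference of -0.40 between 2 h and 0 h. Both had 1 detected probe. NUPR1, a stress-induced nuclear protein gene with 2 detected probes, had 8.29, 8.15, 7.82 and 8.49 on the brighter one, and the 2 probes gave 0.67 and 0.62. NUPR1 was among the genes picked because all their probes agreed. The remaining members past 1.5-fold were SESN2 (0.90), an inhibitor of mTORC1 signalling, GDF15 (0.73), a secreted stress cytokine, and SLC1A4 (0.64), a transporter of neutral amino acids. CHAC1, DDIT3, SESN2 and GDF15 were also at least 1.5-fold higher at 2 h than at 0 h, by 0.70, 0.72, 0.78 and 0.61, and ATF3, by 0.58, was just under that.

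Other members were higher by less. The hormone gene FGF21 and the transporter genes SLC3A2 and SLC1A5 were higher by 0.54, 0.54 and 0.53, the transcription factor gene CEBPB by 0.48, and DDIT4, an mTORC1 inhibitor, by 0.41. ATF4 itself differed by 0.10, 0.43 and 0.12 on its 3 probes, with the brightest probe at 14.74 at 6 h and 14.65 at 4 h. PPP1R15A, which encodes the phosphatase subunit that reverses eIF2α phosphorylation, had its larger step earlier, with log2 levels of 11.58, 11.44, 12.23 and 12.52 at 0, 2, 4 and 6 h. CBS, which makes cystathionine, was the lowest member at -0.42, and it was also lower at 2 h than at 0 h, at -0.60. Against the single 0 h array, which the 3 values share, the list medians were 0.03 at 2 h, 0.28 at 4 h and 0.76 at 6 h.

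Promoter stretches of 3 genes that carry the ATF4 and C/EBP composite site are shown because the genes belong to this response and differ in how firmly the arrays place them. All are from RefSeq (GRCh38.p14), 90 bases long and upstream of an annotated start, chosen because the 250 bases upstream hold the letters TGATGNAA on either strand, and the match is in capitals. CHAC1 lies at chr15:40953221-40953310 on the plus strand, with the match read on the opposite strand, 209 to 202 bases before the start. ATF3 lies at chr1:212565171-212565260 on the plus strand with the match 191 to 184 bases before 1 of its 2 starts. ASNS, the asparagine synthetase gene, lies at chr7:97872432-97872521 on the minus strand, with the match 68 to 61 bases before 1 of 2 starts.
CHAC1: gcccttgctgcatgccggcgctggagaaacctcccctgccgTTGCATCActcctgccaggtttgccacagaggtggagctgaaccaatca
ATF3: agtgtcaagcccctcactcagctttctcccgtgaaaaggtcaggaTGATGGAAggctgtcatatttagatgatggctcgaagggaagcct
ASNS: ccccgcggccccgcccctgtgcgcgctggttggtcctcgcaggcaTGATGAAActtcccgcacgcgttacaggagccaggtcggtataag
The letters occurred in 5 of 42 promoters (11.9%) of the 26 measured list genes that the promoter table holds, and in 3.14% of all 35116 promoters. A match describes the letters and does not show binding. The list was made of ATF4 and CHOP targets, so this share describes its members and not the difference between times.

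Genes of amino acid supply differed less between the times than the stress factors themselves. Of 11 measured genes of serine, glycine, proline, asparagine and single-carbon synthesis, 7 were higher and 4 lower, with a median log2 difference of 0.17. PSPH, the last enzyme of serine synthesis, was the 1 member past 1.5-fold, at 0.74 on its brighter probe and 0.31 on its dimmer one. ASNS gave 0.49 and -0.02 on its 2 probes, which differ by more than the scatter of single probes, so its direction at the 4 h to 6 h step was not settled. SHMT1, a cytosolic enzyme of single-carbon metabolism, was lowest at -0.42, and without it, since it was past 1.5-fold at 2 h against 0 h, the median of 10 genes was 0.18. Of 19 measured cytosolic aminoacyl-tRNA synthetase genes, which charge tRNAs with amino acids, 14 were higher and 5 lower, with a median of 0.13. CARS1, for cysteine, was at least 1.5-fold higher (0.69), MARS1, SARS1 and GARS1 were higher by 0.45, 0.36 and 0.30, and VARS1 gave -0.26 and 0.33 on its 2 probes.

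The unfolded protein response of the endoplasmic reticulum, driven by XBP1 and ATF6, was mixed. Of 21 measured genes 14 were higher and 7 lower, with a median log2 difference of 0.12, and 2 were at least 1.5-fold higher. XBP1 had log2 levels of 11.99, 12.04, 12.70 and 13.19 at 0, 2, 4 and 6 h on its brighter probe, and its 2 probes were higher by 0.50 and 0.65 at 6 h than at 4 h. CREBRF, which encodes a regulator of that response, had 8.28, 8.39, 8.70 and 9.38, and both of its probes gave 0.67. HYOU1, a chaperone, gave 0.51 and 0.46 on its 2 probes. HSPA5, the main chaperone of the compartment, had 8.91, 8.99, 8.94 and 9.52, a difference of 0.58 that lay just under 1.5-fold. CALR, a calcium-binding chaperone, was higher by 0.87 at 6 h than at 4 h and also by 0.96 at 2 h than at 0 h. The chaperone gene HSP90B1 was lower, at -0.27. Of the 6 members with several probes, 5 had all probes higher and 0 had all probes lower. Without members past 1.5-fold either way at 2 h against 0 h, CALR and HYOU1 among them, 12 of 17 were higher, with a median of 0.12 and 1 past 1.5-fold.

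**Figure D2:**
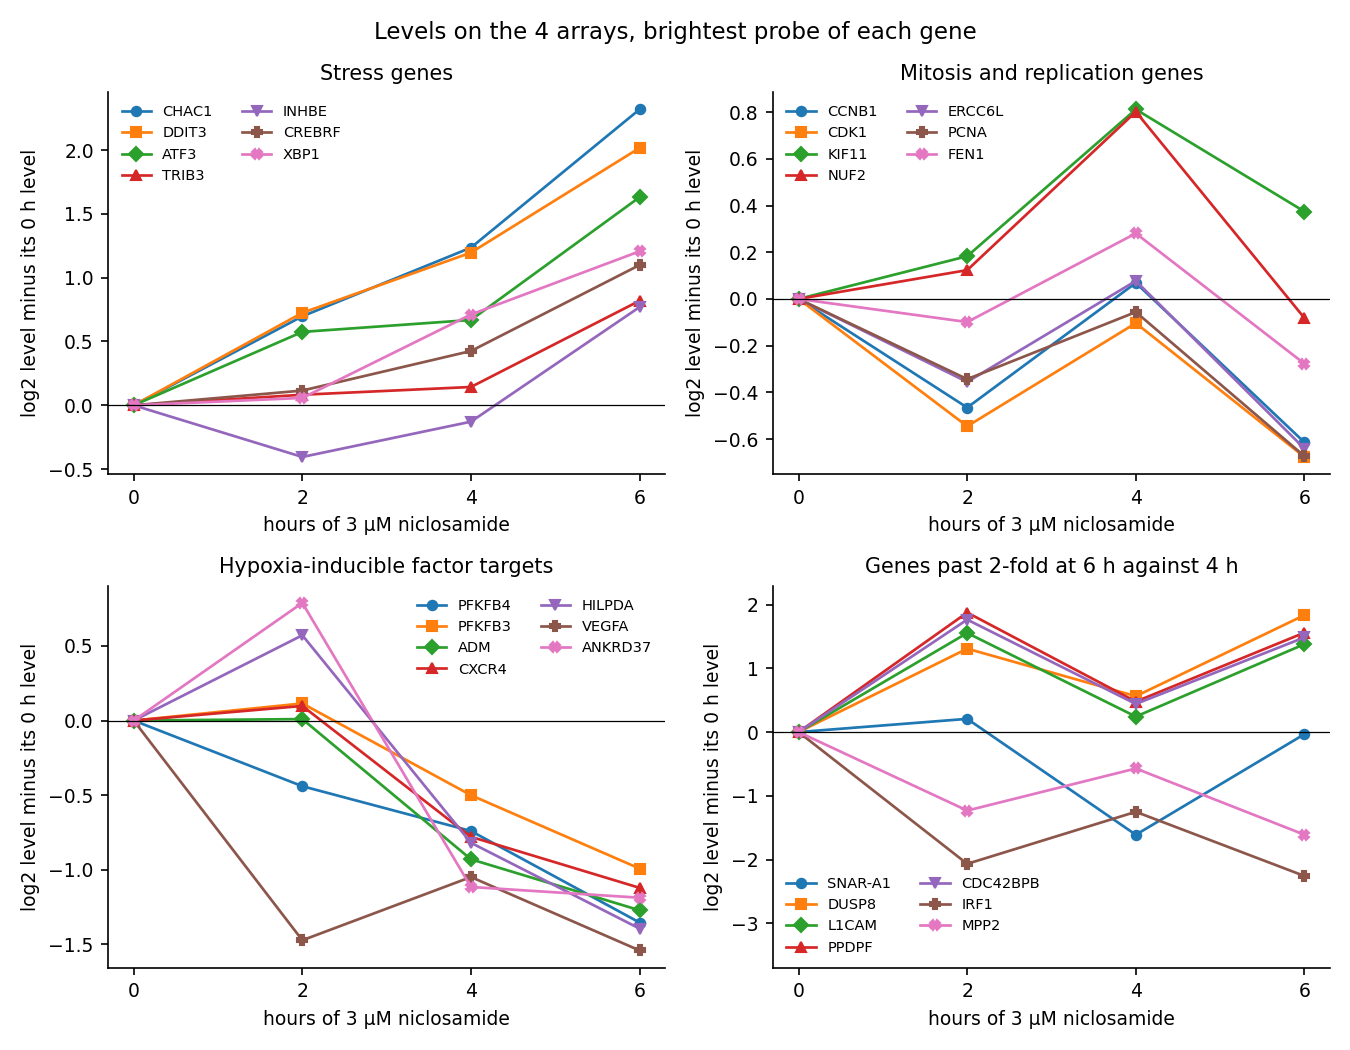
Log2 level of the brightest probe minus its 0 h level (vertical axis) at 0, 2, 4 and 6 h of 3 µM niclosamide (horizontal axis), 1 array per point, in panels of stress genes, mitosis and replication genes, hypoxia-inducible factor targets and genes past 2-fold at 6 h against 4 h. CHAC1, DDIT3 and ATF3 climb at every step, ATF3 only slightly between 2 h and 4 h. The mitosis and replication genes are all lower at 6 h than at 4 h after higher values at 4 h than at 2 h. Of the 7 hypoxia targets 6 lie lower at 4 h than at 2 h and lower again at 6 h. DUSP8, L1CAM, PPDPF, CDC42BPB, IRF1 and MPP2 lie closer to 0 at 4 h than at 2 h or 6 h.

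Genes of cell division were lower at 6 h than at 4 h with few exceptions. All 35 listed genes of G2/M and mitosis were measured, 34 were lower and 1, the phosphatase gene CDC25B at 0.05, was higher, beside 53.2% of all genes lower. The median log2 difference was -0.41, and 3 members were at least 1.5-fold lower and 0 higher. These were BIRC5, which encodes survivin of the chromosomal passenger complex, at -0.72, CCNB1, the cyclin B1 gene, at -0.68, and DLGAP5, a spindle factor, at -0.63. Of 12 members with several probes, 10 had every probe lower, 0 had every probe higher and 2 were mixed. Without the 4 members past 1.5-fold at 2 h against 0 h, 30 of 31 were lower, with a median of -0.39.

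CCNB1 had log2 levels of 9.06, 8.59, 9.13 and 8.44 at 0, 2, 4 and 6 h. CDK1, the kinase that cyclin B1 activates, had 10.13, 9.58, 10.03 and 9.45 on its brighter probe, and its probes differed by -0.57 and -0.43 between 6 h and 4 h. Both genes were high at 0 h and 4 h and low at 2 h and 6 h. KIF11, the motor protein that separates spindle poles, differed by -0.44 and -0.65 on its 2 probes, and the levels of the brighter one, 9.12, 9.30, 9.93 and 9.49, put the 4 h array highest. TOP2A, the topoisomerase that disentangles sister chromatids, had 10.30, 10.64, 11.10 and 10.54, again highest at 4 h. The spindle checkpoint kinase gene BUB1 had 9.67, 9.69, 10.08 and 9.50. NUF2 of the kinetochore, outside the list but among the 10 largest negative differences, had 6.69, 6.82, 7.50 and 6.61 and was 1.84 times lower at 6 h on 1 probe. That probe was dim, with a raw signal of 144.9 at 6 h, where the lowest detected signal was 121.2.

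The list therefore did not run in 1 direction over time. Its median against the single 0 h array was -0.17 at 2 h, 0.31 at 4 h and -0.10 at 6 h. Its median from 2 h to 6 h was 0.05, with 22 of 35 members higher at 6 h than at 2 h. At 4 h, 29 of the 35 were above their 0 h level. The 6 h values were thus lower than those of the 4 h array and near those of the 2 h array, and with no second array at 4 h a high value there cannot be told apart from a low one at 6 h.

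Among genes outside that list but picked because all their probes agreed, ERCC6L, a helicase of anaphase DNA bridges, gave -0.72 and -0.50 and ZWINT, a kinetochore protein, gave -0.49 and -0.56. FBXO5, an inhibitor of the anaphase-promoting complex, was lower, at -0.82 on 1 probe. Promoter stretches of 3 genes of this kind with 2 agreeing probes are shown because the letters of the CHR element (TTTGAA or TTTAAA, either strand) and of the CCAAT box (CCAAT, either strand) are common to mitotic promoters. They are from RefSeq (GRCh38.p14), each 90 bases upstream of an annotated start and chosen because both elements lie in the window, with matches in capitals. CDK1 lies at chr10:60778388-60778477 on the plus strand, KIF11 at chr10:92593040-92593129 on the plus strand and ZWINT at chr10:56361274-56361363 on the minus strand.
CDK1: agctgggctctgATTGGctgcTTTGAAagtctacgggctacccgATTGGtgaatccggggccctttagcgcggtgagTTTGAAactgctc
KIF11: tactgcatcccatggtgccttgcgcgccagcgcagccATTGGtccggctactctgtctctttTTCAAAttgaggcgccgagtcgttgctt
ZWINT: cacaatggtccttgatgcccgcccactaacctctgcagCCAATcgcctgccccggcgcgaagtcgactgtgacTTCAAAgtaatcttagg
Of 39 promoters of the 29 list genes in the table, 26 (66.7%) held the CHR letters within 250 bases, 30 (76.9%) held CCAAT and 22 (56.4%) held both, beside 21.9%, 32.0% and 7.64% of all 35116 promoters. The list was made of mitotic genes, so these shares describe its members and not the difference between times.

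Most replication genes were lower to a smaller extent, while replication-dependent histone genes were mostly higher. In the G1/S and DNA replication list, 26 of 29 measured genes were lower and 3 higher, with a median log2 difference of -0.30. PCNA, the sliding clamp of the replication fork, was the 1 member at least 1.5-fold lower, with log2 levels of 11.47, 11.12, 11.41 and 10.79 at 0, 2, 4 and 6 h. FEN1, the nuclease that trims Okazaki fragments, gave -0.56 and -0.37 on its 2 probes, and MCM10, an initiation factor, -0.52 and -0.32. The helicase subunits MCM2 to MCM7 differed little, between -0.28 (MCM7) and -0.01 (MCM3) on their brightest probes. Of 11 members with several probes, 7 had every probe lower and 0 had every probe higher. This list was lower at 2 h than at 0 h as well, with a median of -0.34, and its median from 2 h to 6 h was 0.01. Without the 5 members past 1.5-fold at 2 h against 0 h, 21 of 24 were lower between 6 h and 4 h, with a median of -0.26. Of all 29 members, 25 were below their 0 h level at 2 h, most by less than 1.5-fold, so most of the 24 shared that direction. Of 55 listed replication-dependent histone genes 10 were measured, 8 higher and 2 lower at 6 h, with a median of 0.13. H2AC18 gave 0.45 and 0.71 on its 2 probes. All 10 were below their 0 h level at 4 h, with a median of -0.68. Without members past 1.5-fold at 2 h against 0 h, 6 of 7 were higher, with a median of 0.29. Among 17 measured genes of purine and pyrimidine synthesis 13 were lower and 4 higher, with a median of -0.12. IMPDH1, of guanine nucleotide synthesis, was lower, at -0.76, and RRM2, the regulated subunit of ribonucleotide reductase, at -0.59, while RRM1, its partner, differed by 0.04. IMPDH1 was also lower at 2 h than at 0 h, at -1.05, and RRM2 gave -0.15 there. Without IMPDH1 and PRPS2, the members past 1.5-fold there, 11 of 15 were lower, with a median of -0.10.

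Targets of the hypoxia-inducible factors were mostly lower. Of 25 measured genes 19 were lower and 6 higher, with a median log2 difference of -0.19, and 2 were at least 1.5-fold lower (1.21% of all genes) and 0 higher. Without the members past 1.5-fold at 2 h against 0 h, 16 of 22 were lower, with a median of -0.15 and the count of 2 at 1.5-fold as before. PFKFB4, an enzyme that sets the pace of glycolysis, had log2 levels of 13.07, 12.63, 12.33 and 11.72 at 0, 2, 4 and 6 h, lower at every step, and differed by -0.61 between 6 h and 4 h on 1 probe. ANGPTL4, a secreted inhibitor of lipoprotein lipase, differed by -0.66 on its brighter probe and 0.12 on its dimmer one. HILPDA, a lipid droplet protein, had 8.34, 8.91, 7.52 and 6.94 and differed by -0.58.

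Several targets had made most of their way down by 4 h. ADM, the vasodilator adrenomedullin, had log2 levels of 12.40, 12.41, 11.47 and 11.13, and the receptor gene CXCR4 had 10.45, 10.55, 9.67 and 9.33 with -0.34 and -0.25 on its 2 probes between 6 h and 4 h. ANKRD37 had 10.61, 11.40, 9.50 and 9.42, so that its step from 4 h to 6 h was only -0.07. PFKFB3 gave -0.49 and -0.14 on its 2 probes, and VEGFA, the main growth factor of blood vessels, -0.49 and -0.05. VEGFA had its lowest values on the 2 h and 6 h arrays, with 9.42, 7.94, 8.37 and 7.88 over the 4 times. DDIT4, also a member of the stress list, was the highest at 0.41. Of 8 targets with several probes 6 had every probe lower, 0 had every probe higher and 2 were mixed. Against the shared 0 h array the list medians were 0.10 at 2 h, -0.44 at 4 h and -0.62 at 6 h. The letters ACGTG, the core of the hypoxia response element, were in 15 of 29 promoters (51.7%) of 20 list genes, beside 18.5% of all promoters, within 250 bases and on either strand. The list was made of targets of these factors, so this share describes its members and not the difference between times.

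**Figure D3:**
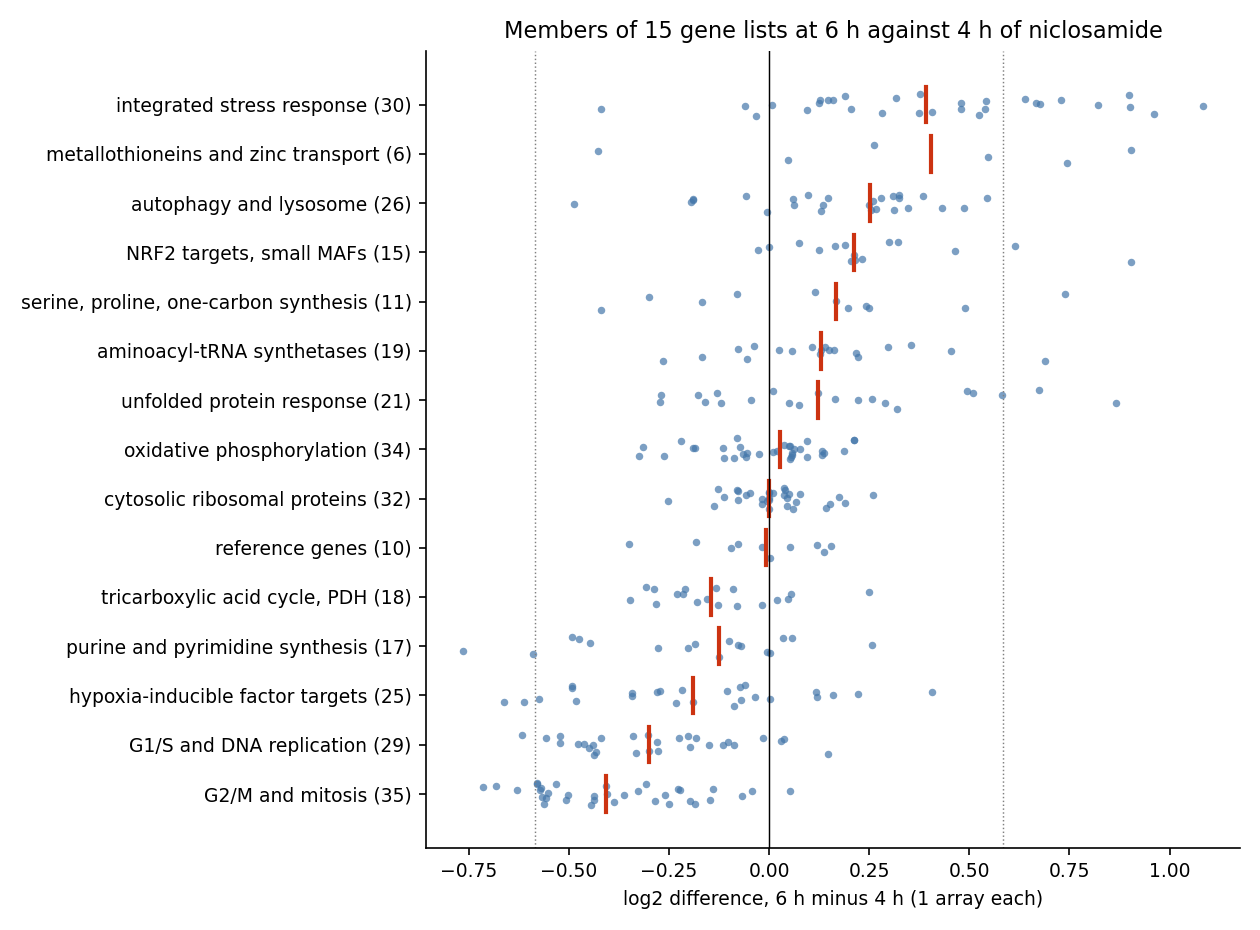
Log2 difference of each measured member between 6 h and 4 h, 1 array per time (blue points, brightest probe), in 15 gene lists with the number measured in parentheses, and the list median (red bar). Dotted lines mark 1.5-fold. The medians run between 0.39 for the integrated stress response or 0.41 for the 6 metallothionein and zinc genes and -0.41 for G2/M and mitosis, while oxidative phosphorylation, ribosomal proteins and reference genes lie at 0.03, 0.00 and -0.01.

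Smaller sets of stress genes were mostly higher. Of 15 measured targets of NRF2, the regulator of antioxidant genes, and its small MAF partners 13 were higher and 2 lower, with a median log2 difference of 0.21. MAFG gave 0.61 and 0.79 on its 2 probes, and MAFF 0.90, 0.71 and -0.18 on its 3. HMOX1, heme oxygenase, was higher by 0.46 and also by 0.50 at 2 h than at 0 h. The list was likewise above 0 at 2 h against 0 h, with a median of 0.29. Without the 4 members past 1.5-fold there, MAFF and MAFG among them, 9 of 11 were higher between 6 h and 4 h, with a median of 0.19 and 0 past 1.5-fold. Only 6 metallothionein and zinc transport genes were measured, with a median of 0.41, of which 5 were higher. MT2A, a metal-binding protein, was higher by 0.74 with log2 levels of 12.42, 12.97, 12.31 and 13.05, and MTF1, the zinc sensor that drives it, by 0.90 with 8.88, 9.88, 9.45 and 10.36. Both alternated between arrays, and the median of the 6 genes from 2 h to 6 h was 0.07. Without MTF1, past 1.5-fold at 2 h against 0 h, the median of 5 genes between 6 h and 4 h was 0.26.

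Of 26 measured autophagy and lysosome genes 20 were higher and 6 lower, with a median log2 difference of 0.25 and 0 past 1.5-fold. GABARAPL1, which builds autophagosomes, was higher by 0.54, and the lysosomal protease gene CTSD by 0.49. TFE3, a transcription factor of these genes, was lower, at -0.49. Without members past 1.5-fold at 2 h against 0 h, 16 of 20 were higher and the median was again 0.25. Among interferon-stimulated genes 16 of 19 were lower, with a median of -0.15. IRF1, which responds to interferon, had log2 levels of 10.05, 7.98, 8.80 and 7.79 and was 2.01 times lower at 6 h than at 4 h, and IFI6 gave -0.62 and -0.05 on its 2 probes. These 2 were the members past 1.5-fold, and both were past it at 2 h against 0 h as well, which left 14 of 17 lower with a median of -0.14. Of 18 measured genes of the tricarboxylic acid cycle and pyruvate dehydrogenase 14 were lower, none past 1.5-fold, with a median of -0.14, or 12 of 15 and -0.13 without members past 1.5-fold at 2 h against 0 h.

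Several groups had medians near that of all genes. The medians were 0.03 for 34 nuclear-encoded subunits of oxidative phosphorylation, 0.00 for 32 cytosolic ribosomal proteins, -0.01 for 10 reference genes and -0.05 for 17 genes of glycolysis and lactate export. By the brightest probe, 0 members were past 1.5-fold in each. The glycolysis gene PKM was higher on all 3 probes, by 0.42 on the brightest and by 0.64 and 0.82 on the others. These probes were also higher at 2 h than at 0 h, by 0.92, 1.14 and 1.11. Among 19 mitochondrial chaperone, protease and import genes the median was -0.08. OMA1, the protease that relays mitochondrial membrane depolarization, was lower, at -0.59 on 1 probe. GRPEL2, a partner of mitochondrial HSP70, was higher by 0.46, with log2 levels of 10.73, 11.10, 11.65 and 12.10 at 0, 2, 4 and 6 h that climbed at every step. MYC gave -0.43 and -0.34 on its 2 probes. CCND1, cyclin D1, differed by -0.29, AXIN2, a Wnt target, by -0.38, TXNIP by 0.25, and the cell cycle inhibitor gene CDKN1A by 0.15 and 0.22 on its 2 probes. STAT3 gave values between 0.12 and 0.30 on its 3 probes.

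The largest single differences were of genes with 1 detected probe. SNAR-A1, a small noncoding RNA of a family with near-identical copies that a probe may not separate, had log2 levels of 10.46, 10.67, 8.85 and 10.43 at 0, 2, 4 and 6 h. It was 2.99-fold higher at 6 h than at 4 h, with the 4 h array alone low. DUSP8, a phosphatase of stress-activated kinases, had 7.11, 8.42, 7.67 and 8.94 and was 2.42-fold higher. BORCS8-MEF2B, a read-through transcript that shares sequence with MEF2B, had 6.75, 8.50, 7.50 and 8.75 and was 2.39-fold higher. In DUSP8 and BORCS8-MEF2B the 2 h and 6 h arrays were both above the 0 h and 4 h arrays.

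Next came the adhesion molecule gene L1CAM at 1.14, with log2 levels of 6.33, 7.88, 6.57 and 7.71, CHAC1 and PPDPF, both at 1.08, the kinase gene CDC42BPB at 1.04, the phosphatase gene PTPN23 at 1.04, the DNA-binding protein gene ARID3A at 1.02 and KLC2, a light chain of the motor kinesin, also at 1.02. KLC2 was the 1 gene past 2-fold with a second detected probe, which gave 0.58. All of these were also at least 1.5-fold higher at 2 h than at 0 h, as were 10 of the 11 genes past 2-fold, SNAR-A1 being the exception at 0.21. On the lower side ARHGAP33 differed by -1.07, the scaffold gene MPP2 by -1.04 and IRF1 by -1.01, and all 3 were at least 1.5-fold lower at 2 h than at 0 h. Then followed the thymosin gene TMSB15A at -0.90, the synaptic adhesion gene NLGN2 at -0.90, LRRC26 at -0.89, the endothelial transcription factor gene SOX18 at -0.87 and ADAMTS3 at -0.85. LRRC26 differed by -0.40 between 2 h and 0 h, under 1.5-fold. Some of these genes were dim. L1CAM had a raw signal of 138.9 at 4 h, where the lowest detected signal was 107.5, and ADAMTS3 132.8 at 6 h, where it was 121.2.

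A second probe gave a repeat of the difference within the same arrays. Among the 2117 genes with several detected probes, all probes were higher in 612, all lower in 623 and mixed in 882. Every probe passed 1.5-fold on the higher side in 6 genes (0.283% of these genes) and on the lower side in 0 (0%). With median scaling 3 genes passed on the higher side, and with a detection p under 0.05 there were 3 on the lower side. The 6 were ATN1, CREBRF, DYRK1B, MAFG, NUPR1 and RILPL2. At 1.3-fold, every probe was higher in 34 genes (1.61%) and lower in 17 (0.803%). The 2 probes of a gene correlated at r = 0.35 over the 1783 genes with exactly 2, so 35.4% of the variance of a probe's difference was shared with the other probe. For 2 h minus 0 h the 2 probes correlated at only r = 0.10. Of the 24 genes at least 1.5-fold higher that had several probes 19 had all probes higher, and of the 17 at least 1.5-fold lower 11 had all probes lower.

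Of the 6 genes, CREBRF, NUPR1 and RILPL2 were under 1.5-fold at 2 h against 0 h, at 0.12, -0.13 and 0.25 on the brighter probe. RILPL2, a protein of ciliary traffic, had log2 levels of 8.97, 9.22, 9.01 and 9.64 on it and differed by 0.63 and 0.69 on its 2 probes. The other 3 were past 1.5-fold there, with 1.62 for ATN1, a transcriptional corepressor gene, 1.95 for the kinase gene DYRK1B and 0.63 for MAFG, and both of their probes took part. TSC22D3, a glucocorticoid-induced leucine zipper gene, agreed on 3 probes, at 0.63, 0.56 and 0.61. TUBB2A, a beta-tubulin gene, gave 0.52 and 0.56. On the lower side TMSB15B, a near-identical relative of TMSB15A that probes may not separate, gave -0.79 and -0.55. EXTL2, a glycosyltransferase gene, gave -0.47 on both probes with levels of 9.91, 10.26, 10.53 and 10.05, and PRMT6, an arginine methyltransferase gene, -0.52 and -0.43 with 10.57, 10.59, 10.59 and 10.07, so that the 6 h array alone was low.

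In other genes the probes disagreed. ASNS, ANGPTL4, VEGFA, IFI6 and PSPH had 1 probe with a much smaller or opposite difference. CHKA, choline kinase, was higher by 0.37 on its brighter and 0.89 on its dimmer probe.

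**Figure D4:**
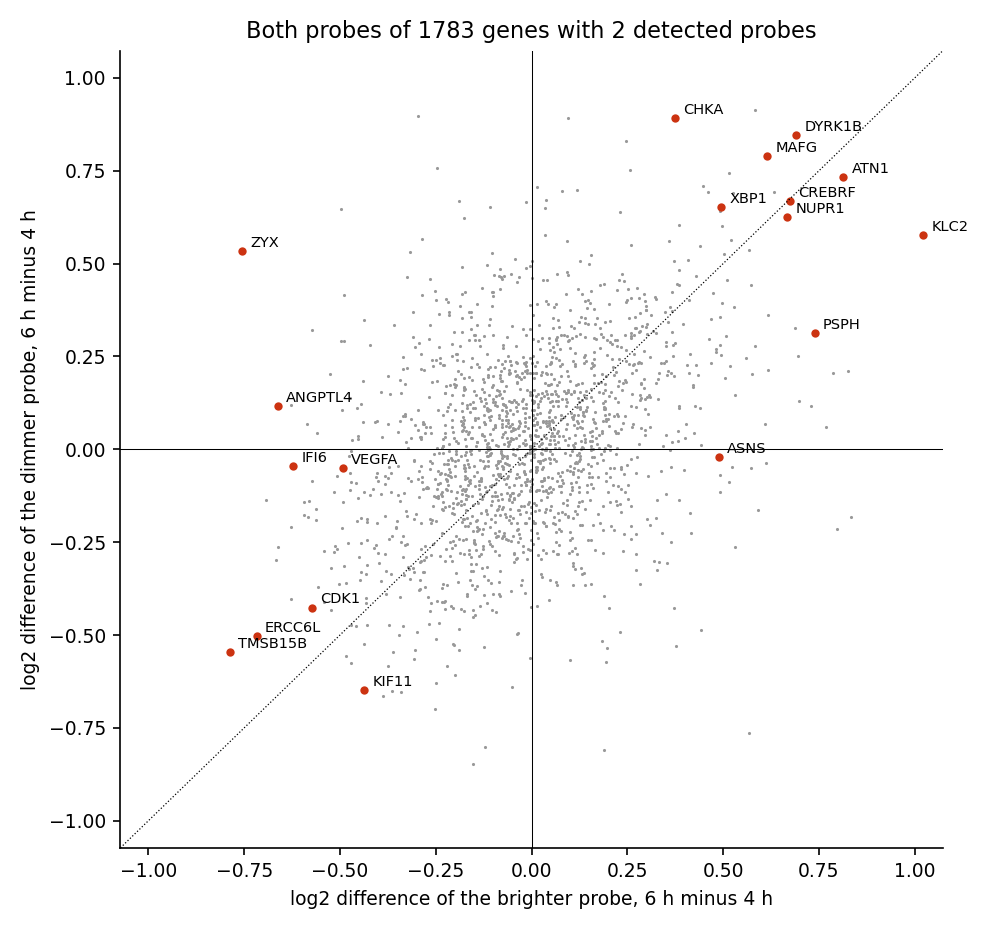
Log2 difference between 6 h and 4 h of the brighter probe (horizontal axis) and the dimmer probe (vertical axis) of the 1783 genes with exactly 2 detected probes, with named genes in red and equality dotted. The 2 probes correlate at r = 0.35, with ATN1, CREBRF, DYRK1B, MAFG and NUPR1 together at the upper right, TMSB15B, ERCC6L, KIF11 and CDK1 at the lower left, and ASNS, ANGPTL4, IFI6 and VEGFA near or across the line of no difference for 1 probe. ZYX, the adhesion gene labelled at the upper left, was picked after its values were seen, at -0.76 and 0.53.

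Genes detected on only 1 of the 2 arrays gave only a bound, with the dimmest detected probe standing in for the array that missed them. Of the 18665 named genes, 56 were detected only at 6 h and 357 only at 4 h. The arrays had 13827 detected probes at 6 h and 14461 at 4 h. The lowest detected raw signal was 121.2 at 6 h and 107.5 at 4 h, so the 4 h array reached dimmer probes. The part of this in the 2 gene counts was not tested. No bound reached 2-fold. GPAT4, a glycerol phosphate acyltransferase gene, was at least 1.87-fold higher at 6 h, and NIM1K, a protein kinase gene, at least 1.77-fold lower. MDM4, an inhibitor of p53, was at least 1.61-fold lower by the 1 probe concerned. Of 1960 detected probes without a gene name, 46 were at least 1.5-fold higher and 21 lower.

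The labelled identity was only partly readable. Of 18 tumour-initiating cell and pluripotency markers 8 were detected on both arrays, 6 of them lower and 2 higher at 6 h, with a median log2 difference of -0.22. ALDH1A1 had log2 levels of 13.35 at 4 h and 12.99 at 6 h on its brighter probe. LIN28B, MYC and EPCAM were also detected and lower, while KLF4 and CD24 were higher, by 0.37 and 0.12. CD44, KIT, PROM1, ABCG2, SOX2, POU5F1 and NANOG were among those not detected on both arrays. Of 14 epithelial and ovarian markers 5 were detected on both arrays, and of 10 mesenchymal markers 3, which were VIM, TWIST1 and ZEB1. VIM had log2 levels of 15.08 at 4 h and 15.11 at 6 h. Markers of blood and endothelial cells were sparse, with 1 of 12 leukocyte markers (CD68), 1 of 8 endothelial markers (EGFL7) and 0 of 7 erythroid markers on both arrays. Fibroblast markers were not sparse. Of 9 listed 6 were on both, with a summed signal of 8004 at 6 h and 8923 at 4 h. COL1A2 and THY1 among them had log2 levels of 11.66 and 11.48 at 4 h.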

How the data were processed

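Total RNA of CP70sps cells was labelled with biotin and hybridized to Illumina bead arrays, per the labels. The authors deposited, for every probe of each array, a non-normalized intensity; the submitters' processing notes name BeadStudio, with version and settings not given in the sources used here. A detection p-value stands beside it, per the file headers, in steps of the inverse of 759. The authors' processed intensity values matched a linear quantile normalization within 1.46%. Probe names came from GEO's platform annotation, in which 27578 probes have 1 symbol, 13 several and 21212 none, and 27541 of 27591 Entrez identifiers were found in RefSeq.

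Background correction (normexp, negative controls estimated through the detection p-values, offset 16), log2 and quantile normalization over the 4 arrays used limma 3.58.1 in R 4.3.3, checked on simulated data. The brightest of the probes detected on both arrays stood for a gene. No test was possible with 1 array per time. The robust SD of a probe around its gene came from genes with exactly 2 probes. Members and the 44 gene lists were chosen with earlier results of these data known. Named genes were the 10 largest differences each way, the 12 genes each way whose several probes shared a sign and whose smallest probe difference was largest, up to 4 members per list with the largest difference, up to 5 bounds each way and 26 genes always named; other list members in the text were chosen after their values were seen. Alternatives changed the scaling, the arrays normalized, the background correction, the offset, the detection limit, the probe per gene and the source of the values. Probe reads of genes with near-identical copies are uncertain.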

Additional observations from a re-analysis of the deposited data

How the results depend on the processing

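No paired analysis was possible because each time has 1 array and no test was made. The counts changed with the processing. The list medians are described below by their sign, a looser measure than a count past a fold. Genes at least 1.5-fold higher at 6 h numbered 172 and came to 108 both without background correction and with the authors' processed values, while genes at least 1.5-fold lower numbered 112 and came to 53 under both of these, 59 with an offset of 50 and 174 with no filter on detection. Genes at least 2-fold higher numbered 11 and came to 7 with median scaling, 7 with an offset of 50, and 6 both without background correction and with the authors' values. Genes at least 2-fold lower numbered 3 and came to 5 with a detection p under 0.05 or no filter, and 0 with an offset of 50, without background correction or with the authors' values. Without background correction and with a larger offset, differences of dim probes are made smaller by construction. Genes with every probe at least 1.5-fold higher numbered 6, and 3 with median scaling, and those with every probe lower numbered 0, and 3 with a detection p under 0.05 or no filter. Leaving out genes past 1.5-fold in the same direction at 2 h against 0 h, which was chosen after seeing the data, left 53 higher and 59 lower at 1.5-fold, and 1 higher and 0 lower at 2-fold. The medians of 10 main lists kept their sign under 8 other settings, 80 values in all, and without genes past 1.5-fold either way at 2 h against 0 h. Of 1640 values of 205 named genes under these settings, 1 changed sign, and none did among the 56 genes past 1.5-fold. Many of these genes were named for large differences, so a kept sign says little. These settings are not separate checks. A detection p under 0.05 or no filter moved none of the 205 named genes, which were already detected on both arrays. The mean of the detected probes moved 19 of them and an offset of 50 moved 4. No background correction moved 5, as did the authors' values. The authors' values gave the same counts as no background correction. The totals of 1640 and 80 therefore overstate how much was varied. Genes near the detection limit had the least signal over background, and 1 array per time leaves the spread between cultures unmeasured.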
